A study of Mus musculus with 11 samples.

Results

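The 6 CXC chemokines of mice that carry the ELR motif and attract neutrophils, Cxcl1, Cxcl2, Cxcl3, Cxcl5, Cxcl15 and Ppbp, were described together with the receptor Cxcr2. They were taken by symbol, as 7 of the 21899 genes listed in an RNA-seq experiment on mouse airways. The labels gave every library as trachea of wild-type mice, whereas the methods of the study describe bluntly dissected airways of young adult male BALB/c mice. Nonsensitized mice given sterile PBS made up the PBS group (3 libraries, numbered 1 to 3). In the OVA/LPS/Vehicle group (labelled OL, 4 libraries numbered 12, 34, 56 and 78), mice had been sensitized to ovalbumin (OVA) with alum, challenged with OVA through the nose, exposed to bacterial lipopolysaccharide (LPS) and given vehicle into the trachea. In the OVA/LPS/GGsTop group (labelled OLG, 4 libraries numbered 1 to 4), sensitized and exposed mice received GGsTop, which blocks γ-glutamyl transferase, the enzyme that breaks down glutathione outside cells. The PBS mice received neither OVA nor LPS and are described as given PBS alone. The difference between OVA/LPS/Vehicle and PBS therefore holds OVA and LPS together, along with alum and the vehicle given into the trachea. It is called the change with OVA/LPS below. Nothing in the labels says whether a library came from 1 mouse or from a pool, nor what the double digits of the OVA/LPS/Vehicle group stand for, so p-values measure the spread between these libraries.

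ELR+ CXC ligands carry a glutamate, leucine and arginine motif ahead of their first cysteines. As a family they act mainly on CXCR2, a G protein-coupled receptor through which neutrophils leave the blood and move into inflamed airways. CXCL1, CXCL2, CXCL3 and CXCL5 are made by epithelium, stroma and myeloid cells after signals such as LPS, interleukin-1 and interleukin-17, largely through NF-κB and through slower decay of their mRNA. CXCL15, also called lungkine, is made by lung epithelium at rest, and Ppbp encodes the platelet basic protein, from which proteases release a neutrophil attractant.

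The ligand genes lie together on chromosome 5 and Cxcr2 on chromosome 1. Promoter windows were at hand for 6 of the 7 members in RefSeq (GRCm38.p6), with Cxcl5 as the exception. The last 130 bases before the annotated start are shown for the 3 ligands whose windows hold a κB motif and for Cxcl15, the most abundant ligand, whose window holds none. Sequences run 5′ to 3′ on the plus strand, and capitals mark matches on either strand to the κB letters GGG and TTCC with any 3 bases between them.
Cxcl1 (chr5:90891115-90891244): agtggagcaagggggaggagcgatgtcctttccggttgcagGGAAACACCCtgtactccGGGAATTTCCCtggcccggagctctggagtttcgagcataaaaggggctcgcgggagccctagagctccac
Cxcl2 (chr5:90903769-90903898): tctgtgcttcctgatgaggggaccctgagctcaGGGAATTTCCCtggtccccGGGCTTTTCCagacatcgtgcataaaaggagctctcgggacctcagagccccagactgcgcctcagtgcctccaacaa
Cxcl3 (chr5:90785971-90786100): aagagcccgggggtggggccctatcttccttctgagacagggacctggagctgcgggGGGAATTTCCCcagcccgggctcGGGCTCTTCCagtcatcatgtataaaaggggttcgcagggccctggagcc
Cxcl15 (chr5:90794404-90794533): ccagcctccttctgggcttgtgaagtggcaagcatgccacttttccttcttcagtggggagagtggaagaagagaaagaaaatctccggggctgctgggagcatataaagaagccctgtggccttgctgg
Cxcl1, Cxcl2 and Cxcl3 each held 3 matches, and all had the run GGGAATTTCCC, which reads as a match on both strands and so counts for 2 of the 3. It began 71 bases before the start of Cxcl1, 97 bases before that of Cxcl2 and 73 bases before that of Cxcl3. Cxcl15, Ppbp and Cxcr2 held 0 matches. Of 32851 promoter windows of 300 bases, 5.56% held the motif. The letters TATAAA, present in 13.6% of windows, were found in Cxcl3, Cxcl15 and Ppbp. The AP-1 letters TGANTCA (7.81% of windows) occurred among the members in Ppbp alone, and the C/EBP letters TTGCNNAA (10.8% of windows) in none of them. These matches are a description of letters and not of binding.

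Expression was given as FPKM, fragments divided by exon length and library size. The totals of fragments that these values imply ranged from 14513136 to 18632382 per library. Depth was therefore similar, but 2 features set libraries apart. The deviation of genes from their own mean changed with their GC content by 0.53 log2 per 10 GC points in PBS 3, against 0.06 and 0.05 in the other PBS libraries, −0.26 to −0.19 in OVA/LPS/Vehicle and 0.05 to 0.11 in OVA/LPS/GGsTop, so that GC content moved with the groups. The members have a GC content of 41.3% to 45.6%, under the median of 49.9% of the genes tested, and changes corrected for GC content are given for several genes below. Thyroid and parathyroid markers summed to 97.9, 263 and 533 FPKM in OVA/LPS/Vehicle 12, 34 and 56, against 0.604 in OVA/LPS/Vehicle 78 and at most 1.99 elsewhere. In bulk tissue, fewer cells of a type and less RNA per cell cannot be told apart.

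Cxcl5, Cxcl1, Cxcl2 and Cxcl3 were higher in every OVA/LPS/Vehicle library than in every PBS library, and Cxcl5, Cxcl1 and Cxcl2 were lower in every OVA/LPS/GGsTop library than in every OVA/LPS/Vehicle library. Of 14004 genes averaging 0.5 FPKM or more, 18.7% had OVA/LPS/Vehicle above PBS without overlap and 12.4% had OVA/LPS/GGsTop under OVA/LPS/Vehicle without overlap. In the same way 7.22% of genes lay above and 7.54% under PBS with GGsTop, but no member did. Cxcl15, Ppbp and Cxcr2 overlapped between all groups. Both comparisons use the same OVA/LPS/Vehicle libraries, so a rise in the one and a fall in the other are not independent.

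**Figure D1:**
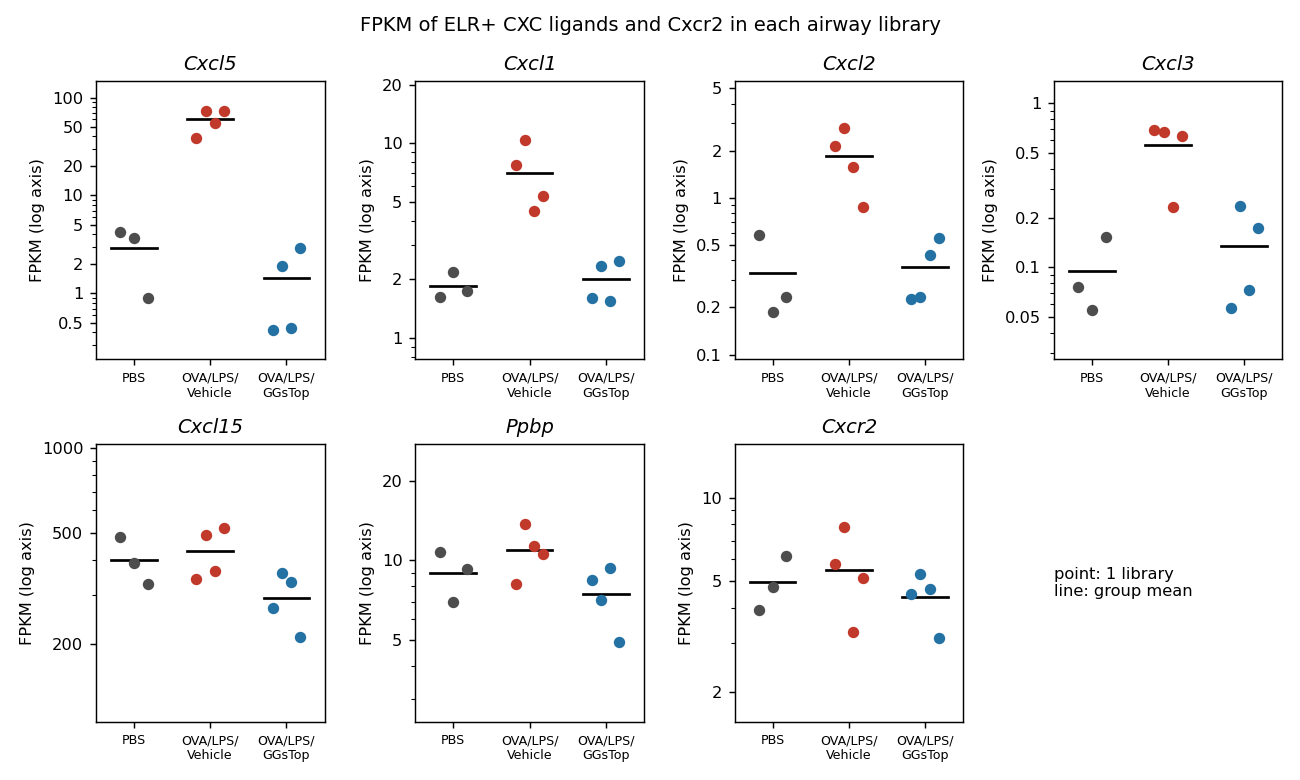
FPKM of each member (log axis) in the 3 groups of libraries (PBS, vehicle and GGsTop), with 1 point per library and a line at the group mean. The OVA/LPS/Vehicle points stand apart for Cxcl5 (39.0 to 73.7 FPKM), Cxcl1 and Cxcl2, while those of Cxcl15, Ppbp and Cxcr2 lie among the others.

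Cxcl5, an epithelial neutrophil attractant also called LIX, moved furthest. It stood at 4.24, 3.67 and 0.893 FPKM in the PBS libraries, at 39.0, 72.6, 54.3 and 73.7 FPKM in OVA/LPS/Vehicle 12, 34, 56 and 78, and at 0.428, 1.92, 0.442 and 2.94 FPKM in OVA/LPS/GGsTop 1 to 4. The 4 vehicle libraries were all high, and the ranges of PBS and GGsTop overlapped. Behind these values were 31 to 119 fragments in PBS, 1127 to 2293 in OVA/LPS/Vehicle and 12 to 81 in OVA/LPS/GGsTop. The mean was 20.4 times that of PBS in OVA/LPS/Vehicle, and 41.8 times that of OVA/LPS/GGsTop. On the log2(FPKM + 1) scale Cxcl5 rose by 4.04 with OVA/LPS (SE 0.43, adjusted p = 0.00236, limma) and fell by 4.74 with GGsTop (SE 0.40, adjusted p = 0.0012, limma), the smallest p of the 14004 genes and the third largest fall. OVA/LPS/GGsTop against PBS gave −0.70 (95% interval −1.64 to 0.24, adjusted p = 0.372, limma). This value ranged from −0.43 (without PBS 1) to −1.16 (without PBS 3) when 1 library was left out, and array weights gave −1.40 (adjusted p = 0.01), past the threshold. In OVA/LPS/Vehicle 78, the library of that group without thyroid signal, Cxcl5 was highest of the group (73.7 FPKM), whereas Cxcl2 (0.868 FPKM) and Ccl20 (11.3 FPKM) were lowest.

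Cxcl1, known as KC and made early by stroma, epithelium and macrophages, measured 1.63, 2.17 and 1.75 FPKM in PBS, 7.78, 10.5, 4.48 and 5.36 FPKM in OVA/LPS/Vehicle and 1.59, 2.35, 1.55 and 2.49 FPKM in OVA/LPS/GGsTop. The lowest vehicle library, number 56, lay above the highest of the other groups. Cxcl1 rose by 1.44 on the log2 scale with OVA/LPS (SE 0.23, adjusted p = 0.00365, limma) and fell by 1.38 with GGsTop (SE 0.21, adjusted p = 0.0131, limma). The means of PBS and OVA/LPS/GGsTop were 1.85 ± 0.283 (SD, n = 3) and 2.0 ± 0.491 FPKM (SD, n = 4), and their difference of 0.06 log2 had a 95% interval of −0.44 to 0.56. Without OVA/LPS/GGsTop 1 the fall had an adjusted p of 0.0639.

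Cxcl2, a macrophage-derived attractant close to Cxcl1 in sequence, was less abundant, at 0.578, 0.187 and 0.234 FPKM in PBS. It stood at 2.15, 2.78, 1.58 and 0.868 FPKM in OVA/LPS/Vehicle and at 0.225, 0.233, 0.429 and 0.555 FPKM in OVA/LPS/GGsTop. The vehicle libraries spread from 0.868 to 2.78 FPKM, with number 78, which had no thyroid signal, the lowest, and still did not overlap with the others. Cxcl2 rose by 1.06 (SE 0.22, adjusted p = 0.00619, limma) and fell by 1.02 (SE 0.20, adjusted p = 0.0204, limma) on the log2(FPKM + 1) scale, which understates changes at this level, as the means differed 5.54-fold and 5.12-fold. Those ratios rest on few fragments, 6 to 18 per library in PBS and 7 to 17 in OVA/LPS/GGsTop, against 30 to 91 in OVA/LPS/Vehicle. With GC correction the difference of OVA/LPS/GGsTop from OVA/LPS/Vehicle was −0.89 (adjusted p = 0.0673). The adjusted p also exceeded 0.05 when OVA/LPS/Vehicle 34 or 56 or OVA/LPS/GGsTop 1, 2 or 3 was left out (0.0502 to 0.0742).

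Cxcl3, a paralog of Cxcl1 and Cxcl2, had a mean of 0.277 FPKM and so was left out of the fit, which took genes of at least 0.5 FPKM. It was listed at 0.0759, 0.0553 and 0.153 FPKM in PBS, at 0.682, 0.669, 0.233 and 0.633 FPKM in OVA/LPS/Vehicle, and at 0.057, 0.236, 0.0725 and 0.174 FPKM in OVA/LPS/GGsTop. Vehicle library 56, at 13 fragments, lay just under OVA/LPS/GGsTop 2, at 12 fragments in a smaller library, and the other vehicle libraries had 37 fragments each. The mean was 5.84 times that of PBS and 4.11 times that of OVA/LPS/GGsTop, with an exact two-sided permutation p of 0.0571 for both (0.133 when adjusted over the 21 tests of 7 members in 3 comparisons). For 3 against 4 libraries 0.0571 is the smallest p that can be had. Fitted without the filter, its log2 differences were 0.50 (SE 0.11, adjusted p = 0.011, limma) and −0.45 (SE 0.10, adjusted p = 0.037, limma).

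The low level of Cxcl3 depends on the length by which its fragments are divided. In the annotation that fits the deposited values (GENCODE M21), the merged exons of Cxcl3 span the whole gene, 3498 bases against 1016 bases of its longest coding transcript. At the coding length its mean would be 0.327 FPKM in PBS, 1.91 in OVA/LPS/Vehicle and 0.464 in OVA/LPS/GGsTop, close to Cxcl2, and it would pass the filter with changes of 1.10 (adjusted p = 0.0072) and −0.97 (adjusted p = 0.0284, limma), though only through the vehicle group, the 1 group above 0.5 FPKM. For Cxcl1 the ratio of the lengths was 1.97, and for the other members it was at most 1.18. Cxcl2 and Cxcl3 also share a run of 110 bases, and 6.31% of the 50-base windows of the Cxcl3 transcript occur in Cxcl2. Some of their reads could therefore fit both genes, and how such reads were counted was not checked. No other pair of ligands shared such a window.

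Cxcl15, the constitutive ligand of lung epithelium, was by far the most abundant member, at 484, 389 and 328 FPKM in PBS, 341, 489, 366 and 518 FPKM in OVA/LPS/Vehicle and 268, 359.5, 333 and 212 FPKM in OVA/LPS/GGsTop. All groups overlapped. Its log2 difference was 0.09 with OVA/LPS (95% interval −0.40 to 0.58, adjusted p = 0.758, limma) and −0.55 with GGsTop (95% interval −1.004 to −0.099, adjusted p = 0.104, limma). Ppbp, which is known from platelets and megakaryocytes, was at 10.7, 6.97 and 9.32 FPKM in PBS, 8.16, 13.8, 11.4 and 10.6 FPKM in OVA/LPS/Vehicle and 8.46, 7.13, 9.36 and 4.93 FPKM in OVA/LPS/GGsTop, again with overlap of all groups. Its differences were 0.26 with OVA/LPS (95% interval −0.21 to 0.72, adjusted p = 0.348, limma) and −0.51 with GGsTop (95% interval −0.94 to −0.08, adjusted p = 0.112, limma). The intervals with GGsTop lay under 0 for both genes, but neither passed the adjustment over all genes. With GC correction Cxcl15 was at −0.27 (SE 0.20, adjusted p = 0.458) and Ppbp at −0.26 (SE 0.22, adjusted p = 0.53).

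Cxcr2, the receptor, measured 3.94, 4.76 and 6.15 FPKM in PBS, 5.78, 7.80, 3.29 and 5.12 FPKM in OVA/LPS/Vehicle and 4.49, 5.31, 4.68 and 3.13 FPKM in OVA/LPS/GGsTop. The highest and the next to lowest of all libraries were both vehicle libraries. Its log2 differences were 0.10 (95% interval −0.40 to 0.60, adjusted p = 0.749) with OVA/LPS and −0.24 (95% interval −0.70 to 0.23, adjusted p = 0.462, limma) with GGsTop, and both intervals include 0.

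Among the 6 members that passed the filter, 3 rose with OVA/LPS (background 15.9% of genes higher) and 3 fell with GGsTop (background 1.81% of genes lower), and these were Cxcl5, Cxcl1 and Cxcl2 in both cases. Cxcl2 averaged 0.333 FPKM in PBS and 0.361 FPKM in OVA/LPS/GGsTop and passed the filter only through OVA/LPS/Vehicle, so these counts do not support a change of the members as a group. The exact two-sided permutation p of each of the 3 with GGsTop was 0.0286, the smallest that 4 against 4 libraries allow, or 0.133 adjusted over the 21 tests. OVA/LPS/GGsTop against PBS gave 0 calls among the members (background 2.06% higher and 0.821% lower, or 0.328% and 0.114% with the replicate block), and 0 members had an unadjusted p under 0.05 there, and limma voom called 0 as well, whereas array weights called 2, Cxcl5 (−1.40) and Cxcl15 (−0.65). The balance of all calls depended on scaling. Of the calls with OVA/LPS, 41.9% were higher, against 21.2% when all libraries were scaled to the same FPKM total. Of those with GGsTop, 79.2% were higher, against 92.9% at the same total and 48.5% at the same median, and of those between OVA/LPS/GGsTop and PBS 71.5%, against 50.7% at the same total. Scaling to the same total moved the median of all genes from −0.01 to −0.15 with OVA/LPS and from 0.03 to 0.11 with GGsTop, and Cxcl5, Cxcl1 and Cxcl2 kept their calls under both scalings.

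**Figure D2:**
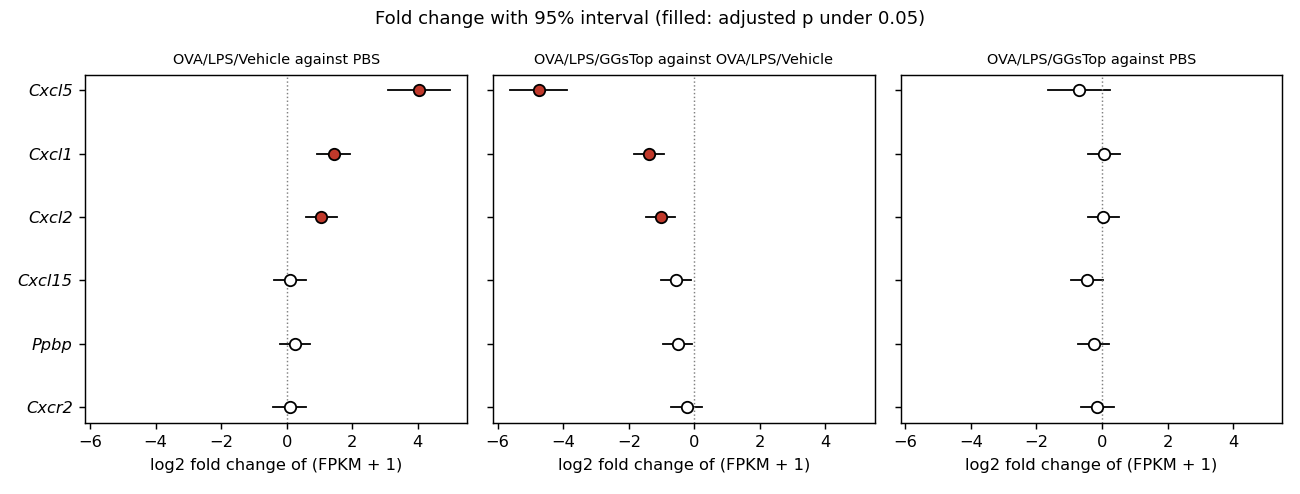
Log2 fold change of FPKM + 1 with its 95% interval for the 6 members in the fit, for vehicle against PBS, GGsTop against vehicle, and GGsTop against PBS. Filled points have an adjusted p under 0.05 and are Cxcl5, Cxcl1 and Cxcl2 in the first 2 panels, and in the third panel all intervals include 0.

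The makeup of the ligand pool differed accordingly. Cxcl15 made up 96.4% to 96.8% of the summed FPKM of the 6 ligands in PBS, 83.0% to 85.5% in OVA/LPS/Vehicle and 95.03% to 96.8% in OVA/LPS/GGsTop. Without Cxcl15, the other ligands summed to 12.3 to 17.3 FPKM in PBS, 57.8 to 100.3 FPKM in OVA/LPS/Vehicle and 10.8 to 11.9 FPKM in OVA/LPS/GGsTop. Cxcl5 held 7.24% to 28.1% of this sum in PBS, 67.5% to 80.8% in OVA/LPS/Vehicle and 3.73% to 26.5% in OVA/LPS/GGsTop. Ppbp held the largest share in every PBS and OVA/LPS/GGsTop library (44.5% to 78.9%). These shares follow from the values that gave the calls above and are a description.

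**Figure D3:**
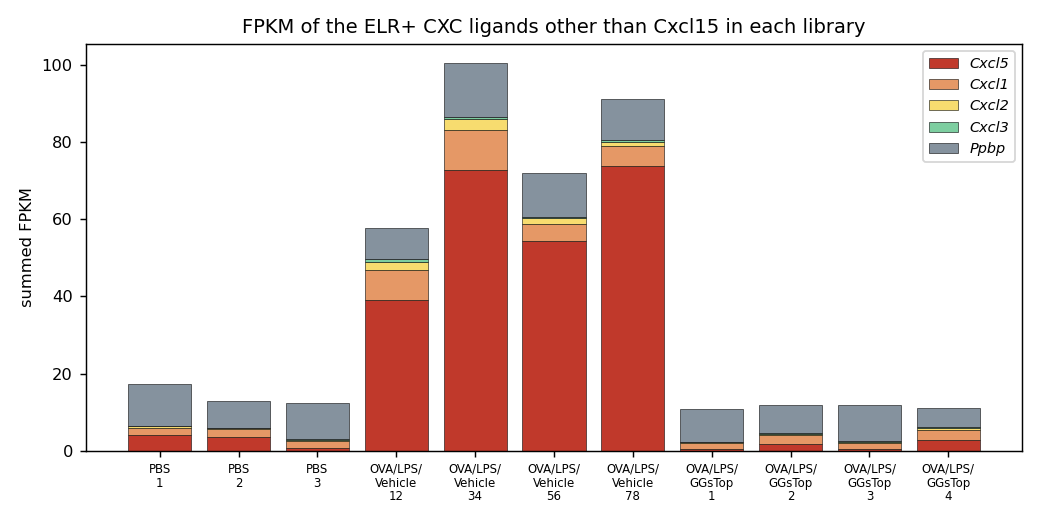
Summed FPKM of the ELR+ CXC ligands other than Cxcl15 in each of the 11 libraries, stacked by gene. The bars reach 57.8 to 100.3 FPKM in the 4 OVA/LPS/Vehicle libraries, where Cxcl5 fills most of the bar, and at most 17.3 FPKM in the others, where Ppbp is the largest segment.

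In PBS the levels ran from Cxcl15 over Ppbp, Cxcr2, Cxcl5, Cxcl1 and Cxcl2 to Cxcl3, with overlap between Cxcr2 and Cxcl5 and between Cxcl5 and Cxcl1. In OVA/LPS/Vehicle Cxcl5 came next to Cxcl15, followed by Ppbp, Cxcl1, Cxcr2, Cxcl2 and Cxcl3, with overlap between Ppbp and Cxcl1 and between Cxcl1 and Cxcr2. In OVA/LPS/GGsTop the order was that of PBS except that Cxcl1 stood above Cxcl5, and neighbors overlapped apart from Cxcl15 with Ppbp and Cxcr2 with Cxcl1. The order holds at merged exon length. At the coding length Cxcl1 stood above Cxcl5 in PBS as well (3.63 against 3.47 FPKM), above Ppbp in OVA/LPS/Vehicle (13.8 against 10.98 FPKM), and Cxcl3 above Cxcl2 in OVA/LPS/GGsTop (0.464 against 0.401 FPKM). All 10 pairs of the 5 ligands in the fit were compared for how far they moved with GGsTop. The log2 level of Cxcl1 relative to Cxcl5 changed by 3.37 (SE 0.40) and that of Cxcl2 relative to Cxcl5 by 3.72 (SE 0.48), whereas the difference of Cxcl5 from Cxcl15 changed by −4.19 (SE 0.47) and that from Ppbp by −4.23 (SE 0.55). For these 4 pairs the libraries did not overlap and the exact two-sided permutation p was 0.0286, the smallest that 4 against 4 libraries allow, or 0.0714 adjusted over the 10 pairs. No pair passed the adjustment. Over 10 pairs, 4 at the smallest possible p could not pass it, so this test cannot decide whether Cxcl5 moved further than the others. Cxcl15 and Ppbp differed by −0.04 (SE 0.19) in how far they moved.

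Across the 11 libraries, log2(FPKM + 1) of Cxcl1 correlated with Cxcl2 (r = 0.92) and Cxcl5 (r = 0.91), that of Cxcl15 with Ppbp (r = 0.75), and Cxcr2 with no ligand above r = 0.46. These correlations rest on the same 3 groups and share library, depth and GC slope, so they are given as a description. The gene most like Cxcl1 in the whole table was Ccl20 (r = 0.93), followed by Cxcl2, Cxcl5, Gm38393 and Pura. The closest to Cxcl5 were Slc44a1 (r = 0.97), a choline transporter, Pura (r = 0.96), Tram1 (r = 0.96), Uxs1 and Ppp1r14d. For Cxcl2 they were Cxcl1, Tmem267, Ckap2, Cage1 and the thyroglobulin gene Tg (r = 0.88). Lrrfip1 (r = 0.96), Vcam1, Snx7, Tinag and Leprotl1 came closest to Cxcl15, and Rell1 (r = 0.97), Ubl3, Edil3, Clec2d and Fkbp1a to Ppbp. For Cxcr2 they were Il1b (r = 0.84), Ap1s1, Arl11, Tlr2 and Il1f9.

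Of 8 other CXC ligands tested, 1 was higher and 1 lower with OVA/LPS, no more than the background of 15.9% and 22.1%. Cxcl17, a mucosal chemokine, rose with OVA/LPS by 2.41 log2 (SE 0.52, adjusted p = 0.00716, limma), Cxcl14 fell by 1.31 (SE 0.27, adjusted p = 0.00642, limma), and the median was 0.20 against −0.01 over all genes. With GGsTop 0 of the 8 were called (background 6.9% higher and 1.81% lower, and 1 higher with array weights). The median was −0.17 against 0.03, with Cxcl14 at 0.57 (adjusted p = 0.151). Cxcl17 stayed high with GGsTop, at 117, 119, 60.2 and 240.2 FPKM against 14.0, 66.7 and 16.4 FPKM in PBS and 105, 154, 132 and 164 FPKM in OVA/LPS/Vehicle, a difference from PBS of 2.21 (adjusted p = 0.0469, limma). Cxcl17 was the 1 of the 8 higher there (background 2.06%). Under the replicate block the last value was 1.87 (adjusted p = 0.0647). Its call was also lost without PBS 3, and leaving out 1 library gave 1.81 to 2.90 (adjusted p up to 0.171, limma). Cxcl11 was not analysed here.

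Of 7 other CXC and atypical receptors, 1 was lower with OVA/LPS, no more than the background of 22.1%, and it was Cxcr1. At the same FPKM total 2 were lower, and with array weights 2 were lower and 1 higher. Cxcr1, a receptor related to Cxcr2, stood at 1.83, 0.519 and 1.58 FPKM in PBS, 0.26, 0.212, 0.0421 and 0.161 FPKM in OVA/LPS/Vehicle and 0.713, 0.462, 0.893 and 0.181 FPKM in OVA/LPS/GGsTop. The vehicle libraries lay under all PBS libraries, as for 25.4% of genes, at 1 to 6 fragments against 12 to 44, and the log2 difference was −0.94 (SE 0.22, adjusted p = 0.00972, limma). With GGsTop it was 0.40 (adjusted p = 0.203), and 0 of the 7 receptors were called (background 6.9% higher and 1.81% lower, and 1 higher with array weights), with Cxcr5 at −0.70 (adjusted p = 0.113). The medians of the list were −0.21 and −0.22, against −0.01 and 0.03 over all genes. Against PBS with GGsTop, Ackr3, a scavenger of CXCL12, was at −0.53 (adjusted p = 0.0717), and 0 of the 7 were called, against 1 lower at the same FPKM total and 3 lower with array weights.

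Of 20 genes that carry the signal of Cxcr2, from its G proteins to the kinases and arrestins that switch it off, 7 were lower and 1 higher with OVA/LPS (background 22.1% lower and 15.9% higher), with a median of −0.30 log2. The smallest p-values were those of the receptor kinases Grk6 (−0.63, adjusted p = 0.00801) and Grk2 (−0.64, adjusted p = 0.0082) and of Arrb1, which encodes an arrestin (−0.81, adjusted p = 0.0135, limma). At the same FPKM total 11 were lower and 0 higher, and without PBS 3 it was 4 and 0. With GC correction Grk6 was at −0.31 (adjusted p = 0.0779), Grk2 at −0.33 (adjusted p = 0.0531) and Arrb1 at −0.64 (adjusted p = 0.0556), 0 of the 20 were lower and 1 was higher, and the part of GC content in these calls was not tested further. With GGsTop 0 of the 20 were called (background 6.9% higher and 1.81% lower), with a median of 0.22 against 0.03 over all genes. Arrb2, which encodes the other arrestin of the list, came closest (0.48, adjusted p = 0.0816). The count of 0 with GGsTop became 3 higher at the same FPKM total, 9 with array weights and 4 without PBS 3. In OVA/LPS/GGsTop against PBS 0 of the 20 were called (1 lower and 2 higher with array weights), with Grk6 at −0.37 (adjusted p = 0.167).

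Of 16 tested genes for inducing cytokines, their receptors and the NF-κB and C/EBP factors, 6 were lower and 1 higher with OVA/LPS (background 22.1% lower and 15.9% higher), with a median of −0.18 log2. Rela, the transactivating subunit of NF-κB (−0.83, adjusted p = 0.00366), Traf3ip2, the adaptor of the interleukin-17 receptor (−0.72, adjusted p = 0.00366), and Myd88, the adaptor of Toll-like and interleukin-1 receptors (−0.54, adjusted p = 0.00449, limma), fell, and 6 were also lower with GC correction, where Rela was at −0.46 (adjusted p = 0.0288). Tlr4, the LPS receptor, rose from 4.13 ± 1.28 (SD, n = 3) to 6.99 ± 1.18 FPKM (SD, n = 4), a call that was lost with GC correction and without PBS 3. With GGsTop 0 of the 16 were called (background 6.9% higher and 1.81% lower, median 0.07, against 0.03 over all genes), and Traf3ip2 was at 0.33 (adjusted p = 0.0796). That count became 3 higher at the same FPKM total, 5 higher without PBS 3, and 5 higher and 2 lower with array weights. In OVA/LPS/GGsTop against PBS 0 were called (5 lower and 1 higher with array weights), with Rela at −0.47 (adjusted p = 0.0857). Il17a, whose product induces these ligands in epithelium, was listed at 0 in all 11 libraries.

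Ccl20, which attracts CCR6-bearing lymphocytes and dendritic cells and is induced by the same signals, was the gene most like Cxcl1. It stood at 0.607, 2.59 and 0.604 FPKM in PBS, 13.6, 26.3, 24.1 and 11.3 FPKM in OVA/LPS/Vehicle and 1.36, 1.94, 0.892 and 3.85 FPKM in OVA/LPS/GGsTop. The vehicle libraries lay above all PBS libraries, as for 18.7% of genes, and above all OVA/LPS/GGsTop libraries, as for 12.4% of genes. Of the 10 tested genes that are known to be induced with the ligands, it was the 1 called with GGsTop (−2.73, adjusted p = 0.00842, background 6.9% of genes higher and 1.81% lower), with 2 lower without PBS 3 and 2 lower and 1 higher with array weights, and the median of the list was −0.18. With OVA/LPS 3 rose and 2 fell (background 15.9% and 22.1%). Ccl20 (3.16, adjusted p = 0.00337), Ptgs2, which encodes the inducible cyclooxygenase (0.77, adjusted p = 0.00734, but 0.25 with GC correction, adjusted p = 0.25), and Saa3, an acute phase protein, rose, while Icam1, an adhesion molecule for leukocytes (−1.16, adjusted p = 0.00662, limma), and Nos2 fell. With GC correction or without PBS 3, 3 of the 10 were higher and 1 lower. Saa3 was at 5.05, 7.11, 4.72 and 12.8 FPKM in OVA/LPS/GGsTop, within the range of 4.89 to 12.2 FPKM of OVA/LPS/Vehicle apart from its lowest and highest library. Against PBS with GGsTop 0 were called (2 lower and 2 higher with array weights), with Saa3 at 1.60 (adjusted p = 0.0665).

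Of 7 factors that set the decay of chemokine mRNA, 1 was lower and 1 higher with OVA/LPS, no more than the background of 22.1% and 15.9%. Khsrp, which speeds decay, fell with OVA/LPS (−0.35, adjusted p = 0.0202) and rose with GGsTop (0.42, adjusted p = 0.0288), from 21.2 ± 2.37 FPKM (SD, n = 3) over 16.3 ± 1.34 to 22.1 ± 1.06 FPKM (SD, n = 4). Elavl1, the stabilizing factor HuR, rose with OVA/LPS (0.38, adjusted p = 0.0186), and Zfp36l1, a decay factor, fell with GGsTop (−0.38, adjusted p = 0.0353, background 6.9% of genes higher and 1.81% lower). Zfp36l1 was also the 1 of the 7 under PBS with GGsTop (−0.43, adjusted p = 0.0496, limma, or 0.171 with the replicate block, background 0.821% lower). That call was lost without PBS 3, and the adjusted p reached 0.135 (limma) when 1 library was left out. With GC correction Khsrp was at −0.02 (adjusted p = 0.878) with OVA/LPS and at 0.15 (adjusted p = 0.291) with GGsTop, Zfp36l1 with GGsTop was at −0.40 (adjusted p = 0.0616), and Elavl1 was at 0.17 (adjusted p = 0.202). These calls were close to the threshold and ended under other settings too. With OVA/LPS, that of Khsrp was lost without PBS 3 or OVA/LPS/Vehicle 34 or 56, and that of Elavl1 at the same FPKM total and without PBS 3 or OVA/LPS/Vehicle 56. With GGsTop, that of Khsrp was lost at the same median and that of Zfp36l1 at the same FPKM total, and both were lost without OVA/LPS/Vehicle 34, 56 or 78 or OVA/LPS/GGsTop 1, 2 or 3, and that of Zfp36l1 also without OVA/LPS/Vehicle 12.

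**Figure D4:**
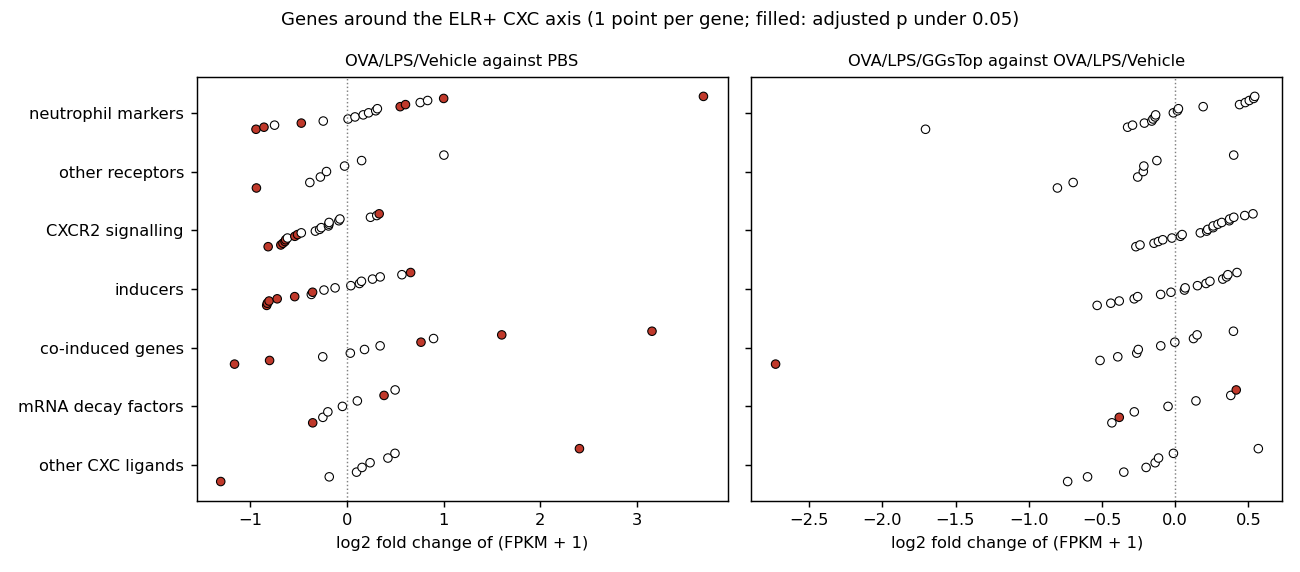
Log2 fold change of FPKM + 1 of the tested genes in 7 lists around the members, with OVA/LPS (left) and with GGsTop (right), 1 point per gene and filled where the adjusted p is under 0.05. On the left both directions hold filled points, and on the right the filled points are Ccl20 at −2.73 and the decay factors Khsrp and Zfp36l1.

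Neutrophil markers moved in both directions. Of 17 tested, 4 were higher and 3 lower with OVA/LPS (background 15.9% and 22.1%, median 0.22 log2). With GGsTop 0 were called (background 6.9% higher and 1.81% lower, median −0.01). In OVA/LPS/GGsTop against PBS 1, Camp, was higher (background 2.06%, or 0.328% with the replicate block). Without PBS 3 these counts with OVA/LPS were 2 higher and 0 lower, 1 was higher with GGsTop, and Camp lost its call. At the same median 1 was lower with OVA/LPS. With GGsTop 1 was higher at the same FPKM total and 2 were higher with array weights. S100a9, a calprotectin subunit and the second most abundant marker, measured 126 ± 85.4 FPKM in PBS (SD, n = 3), 125 ± 27.8 FPKM in OVA/LPS/Vehicle (SD, n = 4) and 102 ± 35.1 FPKM in OVA/LPS/GGsTop (SD, n = 4). Retnlg, a neutrophil granule gene, stood at 23.7 ± 7.89, 46.2 ± 25.9 and 58.3 ± 25.3 FPKM in the same order. Csf3r, the receptor for the neutrophil growth factor, fell with OVA/LPS (−0.86, adjusted p = 0.0456, limma), and with GC correction 0 markers were lower. Ltf, the most abundant gene of the list, is also made by airway glands and ranged from 2.92 to 177.5 FPKM in PBS, 222 to 522 FPKM in OVA/LPS/Vehicle and 15.1 to 452 FPKM in OVA/LPS/GGsTop. The summed level of all 20 markers was 221 to 389 FPKM in PBS, 504 to 681 FPKM in OVA/LPS/Vehicle and 253 to 625 FPKM in OVA/LPS/GGsTop. Ltf carried the separation of PBS from OVA/LPS/Vehicle in this sum, and without Ltf the sums of all groups overlapped. Ly6g, a defining marker under the filter, was listed at 0 in PBS 1 and 2 and at 0.171 FPKM (3 fragments) in PBS 3. It ranged from 0.40 to 0.953 FPKM (6 to 15 fragments) in OVA/LPS/Vehicle and from 0.0717 to 1.02 FPKM in OVA/LPS/GGsTop. The vehicle libraries lay above all PBS libraries, as for 18.7% of the genes tested.

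Platelet and megakaryocyte markers, the usual setting of Ppbp, had 0 of 9 called in each comparison, and Pf4 was at 19.2 ± 2.34 FPKM in PBS (SD, n = 3), 23.2 ± 4.77 in OVA/LPS/Vehicle and 20.97 ± 4.27 FPKM in OVA/LPS/GGsTop (SD, n = 4). Alveolar type II markers, which mark a lung epithelium rather than that of the trachea, were abundant, with Sftpc at 3541 to 12502 FPKM over all libraries, and 6 of 10 were lower with OVA/LPS and 1 was higher with GGsTop. Airway secretory markers had 7 of 10 higher with OVA/LPS and 0 called with GGsTop, and ciliated markers 7 of 8 and 0 (background with OVA/LPS 15.9% higher and 22.1% lower, and with GGsTop 6.9% and 1.81%). Their leading genes Scgb1a1 and Tppp3 were present in every library. Against PBS with GGsTop, the secretory markers Muc5ac, Muc5b and Spdef and the ciliated markers Foxj1, Ccdc39, Rsph1 and Cfap43 were higher (background 2.06%). The alveolar type II marker Etv5 was lower there (background 0.821%). Airway basal markers, led by Krt15, had 0 of 6 called with OVA/LPS or GGsTop and summed to 3.77, 37.7 and 4.03 FPKM in PBS, 52.4, 42.8, 42.4 and 27.5 FPKM in OVA/LPS/Vehicle and 6.06, 21.1, 1.40 and 84.1 FPKM in OVA/LPS/GGsTop. In the same order Cxcl5 was at 4.24, 3.67 and 0.893 FPKM, 39.0, 72.6, 54.3 and 73.7 FPKM, and 0.428, 1.92, 0.442 and 2.94 FPKM. Within OVA/LPS/GGsTop, libraries 2 and 4 were the highest in the basal sum and in Cxcl5, Cxcl1 and Ccl20. In PBS 2, which had the highest basal sum of its group, Cxcl1 and Ccl20 were also highest, but Cxcl5 was not. A link of the basal sum to the members was not tested. Cardiac muscle genes led by Myl7 summed to 93.0 to 2201 FPKM over the libraries. With OVA/LPS, endothelial markers had 4 of 7 lower, macrophage markers 1 of 10 higher and 2 lower, and fibroblast markers 2 of 6 lower, and thyroid and parathyroid markers had 2 of 3, cardiac markers 1 of 6 and skeletal muscle markers 1 of 5 higher, while cartilage, smooth muscle and immature thymocyte markers had 0 called in any comparison. With GGsTop 1 macrophage marker was higher and 1 thyroid marker lower (background 6.9% of genes higher and 1.81% lower). The part of tissue composition in the changes of the members was not tested.

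Over 23 alternative settings, Cxcl5 kept an adjusted p under 0.05 in 23 for both comparisons with OVA/LPS/Vehicle, with values of 3.58 to 4.64 log2 against PBS and −5.81 to −4.45 with GGsTop. Cxcl1 kept its call in 23 of 23 with OVA/LPS and in 22 of 23 with GGsTop, and Cxcl2, which a filter at a mean of 1 FPKM removed, in 22 of 22 and 16 of 22. With GC correction the change with GGsTop was −4.45 for Cxcl5 and −1.22 for Cxcl1 (adjusted p = 0.0387). On fragments recovered from the FPKM, limma voom gave −5.81 for Cxcl5, −1.75 for Cxcl1 and −2.26 for Cxcl2 (adjusted p = 0.0281), the last more than with a pseudocount of 1.

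**Figure D5:**
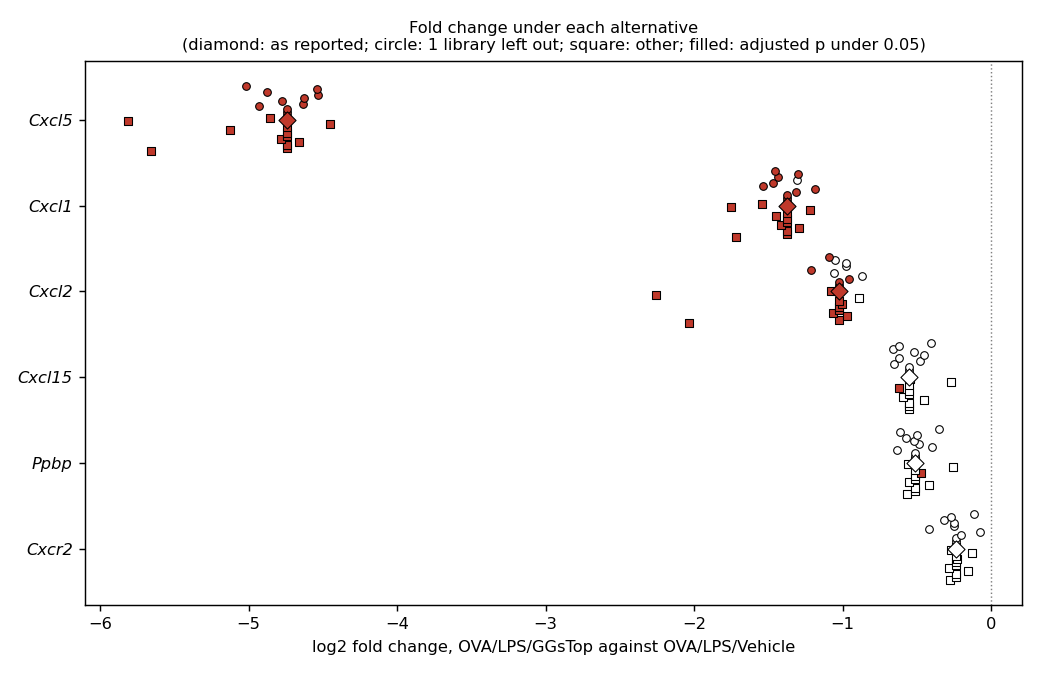
Log2 fold change with GGsTop for the 6 members in the fit under each alternative setting, with a diamond for the reported value, circles for fits with 1 library left out, squares for other settings, and filled symbols for an adjusted p under 0.05. All values of Cxcl5 lie between −5.81 and −4.45 and are filled, those of Cxcl2 are partly open, and for Cxcl15 and Ppbp 1 setting each is filled.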

How the data were processed

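RNA of 11 mouse airway libraries was sequenced. The authors deposited FPKM, 1 value per gene and library, with no further scaling. Per the submitters' processing notes, cutadapt 1.15, HISAT2 2.0.5, HTSeq 0.9.1 and mm39 were used. Identifiers were matched to GENCODE M21 (21795 of 21899 to a symbol). FPKM times merged exon length gave whole fragments within 0.02 for 97.8% of genes. The study's methods name DESeq, which takes counts, and counts were not used here. Instead limma 3.58.1 (R 4.3.3) was run on log2(FPKM + 1) of 14004 genes averaging 0.5 FPKM or more, with all libraries together, a mean-variance trend, two-sided tests, Benjamini-Hochberg adjustment over all genes and a threshold of 0.05. The test was also run on simulated data, and the outcome is not given here. Exact permutation tests and figures used Python 3.11.15 with scipy 1.17.1. From each gene list other than the marker lists, the 3 genes with the smallest p among those called in a comparison, or otherwise the 1 with the smallest p, are named. So are the 3 most abundant neutrophil markers, the most abundant gene of some other marker lists and the 5 genes closest to each member. Other genes named were chosen after their values were seen. The members and lists were chosen with earlier results of these data known. A gene of the Cxcr2 signalling list is not reported here.

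PBS and OVA/LPS/GGsTop share the numbers 1 to 3 in their labels. Same-numbered libraries deviated together from their group means (r = 0.37, 0.43 and 0.43), although PBS 1 correlated more with OVA/LPS/GGsTop 3 (r = 0.46) and PBS 2 with OVA/LPS/GGsTop 4 (r = 0.64), so these 2 groups were also fitted with the number as a block. Alternatives were the pseudocount, filter, scaling, trend, weights, groups fitted, a GC correction, the block and each library left out, and limma voom and coding length were added after seeing the data.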

Additional observations from a re-analysis of the deposited data

Results flagged for a closer look

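In groups of 4 libraries, the gap of the highest or lowest library to the nearest other was compared with the range of the group for 26 genes, and 3 of 52 groups stood out. Chance gives about 1 in 20. Cxcl3 was lowest in OVA/LPS/Vehicle 56, at 0.233 FPKM against 0.633 to 0.682 in the other 3. Elavl1 was highest in OVA/LPS/GGsTop 3, at 7.82 FPKM against 6.51 to 6.70. Myd88 was lowest in OVA/LPS/GGsTop 4, at 15.1 FPKM against 16.4 to 16.5.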

How the results depend on the processing

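The count of members called with OVA/LPS stayed at 3 except for 2 of 5 with a filter at a mean of 1 FPKM, which removed Cxcl2, and 4 of 7 without a filter or at the coding length, which brought in Cxcl3. With GGsTop the count of 3 became 5 with array weights, where Cxcl15 (adjusted p = 0.0125) and Ppbp (adjusted p = 0.0317) passed, and ranged from 1 to 3 when 1 library was left out, with 1 without OVA/LPS/GGsTop 1. Against PBS with GGsTop the count of 0 became 2 with array weights, which called Cxcl5 (−1.40) and Cxcl15 (−0.65). No paired fit was possible for the comparisons with OVA/LPS/Vehicle, whose numbers are not shared, and the replicate block changed no call among the members, but it ended those of Cxcl17 and Zfp36l1 against PBS.

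Signs turned for members that were not called. With OVA/LPS, Cxcl15 was −0.084 at the same FPKM total, −0.029 with array weights and −0.36 with GC correction, and ranged from −0.042 (without PBS 3) to 0.24 when 1 library was left out. Ppbp was −0.15 with GC correction. Cxcr2 was −0.047 at the same total and −0.12 with GC correction, and ranged from −0.064 (without OVA/LPS/Vehicle 34) to 0.28 with 1 library left out. For OVA/LPS/GGsTop against PBS, Cxcl1 was −0.058 with GC correction, −0.014 with the replicate block and −0.13 with block and GC correction, and ranged from −0.014 (without OVA/LPS/GGsTop 4) to 0.14. Cxcl2 was −0.0068 at the same median, −0.23 with array weights, −0.082 with GC correction, −0.033 with the replicate block and −0.15 with block and GC correction, and ranged from −0.044 (without PBS 2) to 0.16. Cxcr2 was 0.14 with array weights and ranged from −0.27 to 0.00036 (without PBS 3). For the pairs at a pseudocount of 0.1, Cxcl1 against Cxcl2 was 0.32 and Cxcl15 against Ppbp 0.011, and the latter ranged from −0.16 to 0.065 (without OVA/LPS/Vehicle 78).

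Counts over all genes moved far more. With GGsTop, 966 higher and 254 lower became 34 and 22 with GC correction, 3232 and 1982 with array weights, 2119 and 1406 with only these groups, 2027 and 155 at the same total, and 384 and 407 at the same median, and leaving out 1 library gave 20 to 2144 and 4 to 1447, the lowest without OVA/LPS/GGsTop 1 and the highest without PBS 3. With OVA/LPS, 2231 and 3096 became 1101 and 1803 with GC correction, 3443 and 4473 with array weights, 1231 and 4570 at the same total, and 1175 and 1889 without PBS 3. Against PBS with GGsTop, 288 and 115 became 46 and 16 with the replicate block, 1379 and 1178 with array weights, 30 and 9 with only these groups and 147 and 61 without a filter. Leaving out 1 library gave 21 to 955 higher and 8 to 642 lower there. The causes were not tested. With 3 or 4 libraries a group, exact tests of single genes could not pass adjustment, and genes at a few fragments, such as Cxcl3 and Cxcr1, carry counting error of their own.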
